A study of Mus musculus with 8 samples.

Results

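The Siglec receptors examined here are 5 mouse genes listed by name, Siglec1, Siglece, Siglecf, Siglecg and Cd33, out of 53647 genes in the table of raw counts. They were taken by gene name, as members of 1 receptor family. RNA had been taken from sorted leukemia macrophages of C57BL/6 mice after 12 h in culture. In the 4 E-Mac libraries the macrophages had shared the culture with mesenchymal stromal cells (MSC), and in the 4 Mac libraries they had been kept alone. Both groups were leukemia macrophages from the same strain, with no other treatment named in the labels. The labels do not say how the leukemia was raised or which markers were used for the sort. Nor do they say that each library had an animal or culture of its own. The p-values thus set the group difference only against the variation between these libraries, and that variation may be technical.

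Siglecs are sialic acid-binding lectins of the immunoglobulin superfamily. They sit on the surface of blood and immune cells and read the sialic acids that cap glycans on the same cell and on its neighbours. Most of them carry inhibitory motifs in the cytoplasmic tail, which recruit the tyrosine phosphatases encoded by Ptpn6 and Ptpn11 and dampen signalling, whereas a few pair with activating adaptors such as the product of Tyrobp. Siglec1, also called sialoadhesin or CD169, is the large adhesive member of resident macrophages. It is known as a marker of bone marrow macrophages and is induced by interferon. The other 4 belong to the fast-evolving group related to CD33: Siglece is an inhibitory receptor of neutrophils, monocytes and macrophages, Siglecg of B cells, Siglecf of eosinophils and alveolar macrophages, and Cd33 is found widely on myeloid cells.

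In the mm10 genome, with gene models of GENCODE M21, Siglec1 lies on the minus strand of chromosome 2 at 131069220 to 131086765. The 4 others lie within 309 kb of each other on chromosome 7. Siglecf is at 43351341 to 43359531 on the plus strand and Siglecg at 43408204 to 43418358 on the plus strand. Cd33 is at 43524216 to 43544428 and Siglece at 43651070 to 43660161, both on the minus strand. All are annotated as protein coding, and no exon of the 5 overlaps an exon of another annotated gene. Of the distinct 50-base words in their transcripts, 1.33% for Siglec1, 0% for Siglece, 0.206% for Siglecf, 4.48% for Siglecg and 0.394% for Cd33 also stood in a transcript of another gene.

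Promoter windows, 250 bases before to 50 after an annotated start, were found for 4 of the 5 genes in the RefSeq table of build GRCm38.p6. Siglec1 had no window there, so nothing below covers its promoter. The Siglecf and Cd33 windows are shown because this pair shares the longest stretch among the 4. The Siglecf start is that of the gene model above, whereas the RefSeq start of Cd33 lies 11.3 kb inside the Cd33 gene model, so its window is at an internal start. Capitals mark every stretch of at least 12 bases that stands letter for letter in both windows.
Siglecf, chr7:43351091-43351390, plus strand: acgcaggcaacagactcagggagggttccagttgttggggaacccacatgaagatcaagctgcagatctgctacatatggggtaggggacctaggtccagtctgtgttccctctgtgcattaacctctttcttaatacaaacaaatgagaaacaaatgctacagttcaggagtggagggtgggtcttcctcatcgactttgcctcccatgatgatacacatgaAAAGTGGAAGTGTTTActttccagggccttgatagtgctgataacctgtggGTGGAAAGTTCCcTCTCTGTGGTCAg
Cd33, chr7:43533122-43533421, minus strand: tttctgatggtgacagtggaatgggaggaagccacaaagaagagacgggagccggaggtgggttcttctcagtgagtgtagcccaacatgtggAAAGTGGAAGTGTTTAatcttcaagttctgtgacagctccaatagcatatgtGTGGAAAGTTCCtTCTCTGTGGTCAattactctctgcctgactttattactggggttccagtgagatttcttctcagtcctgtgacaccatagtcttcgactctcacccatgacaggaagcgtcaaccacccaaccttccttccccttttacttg
The longest common stretch, AAAGTGGAAGTGTTTA, is 16 bases long. Of 32851 windows in the table, searched on both strands, 2 held it, and these 2 are the ones shown. The best local alignment of the pair had 62 identical bases in 80 columns (77.5%). Among the other 5 pairs of the 4 windows the longest common stretch was 8 to 10 bases, with 10 for Siglece and Siglecg. Both windows hold TGTGGT, the core of a RUNX motif, in the third shared block, and 16.8% of all windows hold it on either strand. The letters GAGGAA, the core bound by the myeloid factor PU.1, stand on either strand in all 4 members' windows, against 28.3% of all windows. In Cd33 they read as GAGGAA, and in Siglecf, Siglecg and Siglece as the reverse complement TTCCTC. Neither the interferon-stimulated response element (GAAA, any 2 bases, GAAA), found in 3.44% of windows, nor TTCNNNGAA, a STAT motif found in 8.3%, stands in any of the 4. These matches describe letters and not binding.

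Counts per library ran from 13377046 to 15740846 in E-Mac and from 11646025 to 15556935 in Mac. Levels are given as CPM, counts per 1000000, taken over the tested part of a library times its TMM factor. All 5 Siglecs passed the filter on low counts. The label of macrophage was checked against 11 macrophage markers, among them Lyz2 and Csf1r, all of which were detected. They summed to 8400 to 11700 CPM in E-Mac and 12600 to 13700 in Mac, but without Lyz2 the sum was higher in E-Mac (0.95 on the log2 scale). The 15 neutrophil markers, led by S100a9 and the granule protein gene Ngp, summed higher than these in Mac, at 33200 to 37000 CPM, and to 10800 to 17200 in E-Mac (exact two-sided permutation test p = 0.029, the smallest the design allows, adjusted over 12 marker lists to 0.0381). In bulk RNA, fewer cells of a type and less RNA per cell cannot be told apart. E-Mac 2 and E-Mac 4 stand apart from E-Mac 1 and E-Mac 3 in many genes: 12 stromal markers summed to 338 and 356 CPM in E-Mac 2 and 4, to 53.5 and 38.5 in E-Mac 1 and 3, and to 4.08 to 6.88 in Mac. Results that rest on these libraries are given with and without them.

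After co-culture with MSC, the sorted cells carried more Siglec1 and less Siglece and Siglecg, while Siglecf and Cd33 did not pass the test. Siglec1 rose 3.46-fold, Siglece fell to 0.618 times and Siglecg to 0.416 times the Mac level. So 1 of the 5 was higher and 2 were lower in E-Mac by edgeR's quasi-likelihood test at a Benjamini-Hochberg adjusted p under 0.05. This share has to be read against the whole table, in which 58.3% of the 13412 tested genes were called, 29.5% higher and 28.8% lower. With libraries scaled by total counts only, 37.4% of calls were higher, against 50.6% with TMM factors, and the median log2 fold change of all genes moved to -0.147 from -0.003. The 3 called members kept their direction and call under that scaling.

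**Figure D1:**
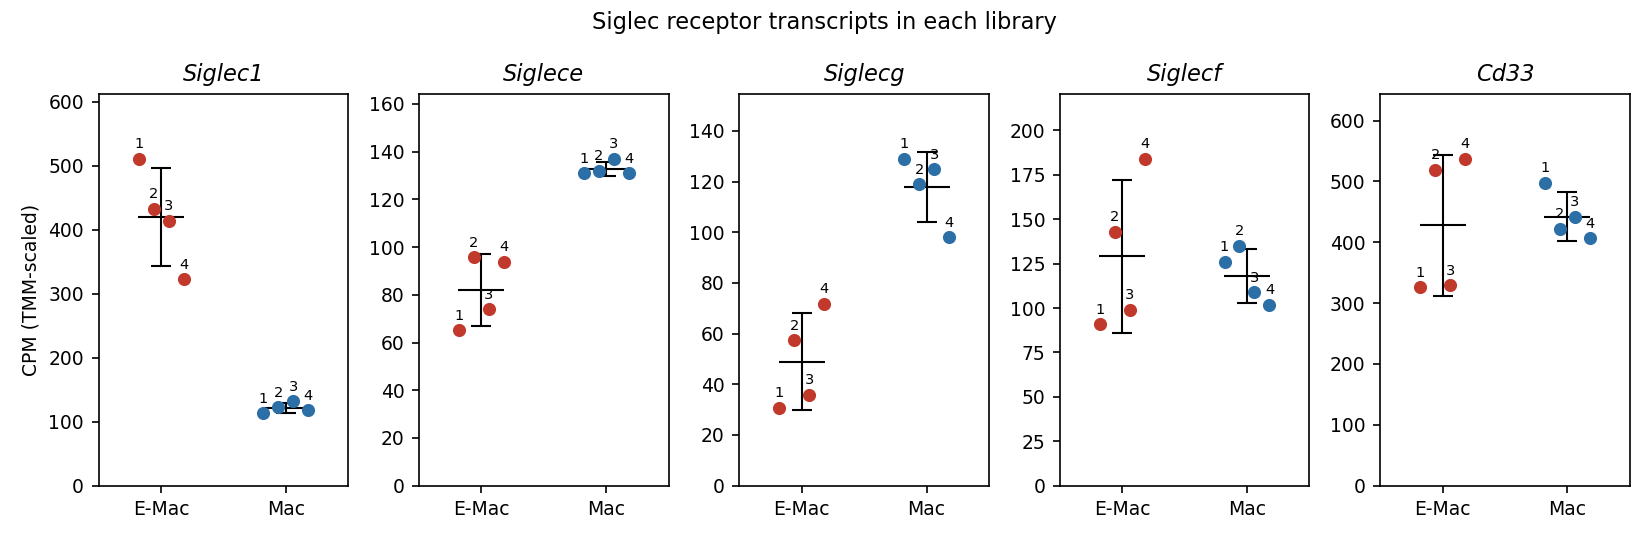
CPM of the 5 Siglec genes in each library, E-Mac (red) and Mac (blue). Points are libraries with their replicate number, and the bars are the mean and SD of 4 libraries. All 4 E-Mac points lie above the Mac points for Siglec1 and below them for Siglece and Siglecg, whereas E-Mac 2 and 4 lie above and E-Mac 1 and 3 below all Mac points for Cd33.

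Siglec1 stood at 511, 433, 414 and 323 CPM in E-Mac 1 to 4, against 113, 123, 132 and 118 CPM in Mac 1 to 4. Every E-Mac library was above every Mac library, as for 53.9% of the tested genes whose groups did not overlap in either direction. Its means were 420.2 ± 77.2 CPM in E-Mac and 121 ± 7.92 in Mac (SD, n = 4 each), a log2 fold change of 1.79 ± 0.12 (SE, edgeR adjusted p = 5.02e-08), and 4.24% of the tested genes had a larger one. E-Mac 4 was the lowest E-Mac library and E-Mac 1 the highest. With E-Mac 2 and 4 left out the log2 fold change was 1.94, and with E-Mac 1 and 3 left out it was 1.65.

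Siglec1 is an interferon-inducible gene, and all 25 of 25 listed type I interferon response genes rose, beside 29.5% of all genes tested. The list had a median log2 fold change of 1.87 against -0.003 over all genes tested. That list was already known to rise in these samples and is no independent evidence. The antiviral genes Rsad2 (3.57 ± 0.08), Ifit3 (3.55 ± 0.08) and Oasl1 (3.39 ± 0.08) had the smallest p in it, and Ifit2 (3.57 ± 0.09) tied with them after adjustment. Mx1, an interferon-induced GTPase named after its values were seen, stood at 741, 595, 694 and 476 CPM in E-Mac 1 to 4 and at 136 to 152 in Mac. As for Siglec1, its highest E-Mac library was E-Mac 1 and its lowest E-Mac 4. Most of the 25 listed genes did not share that order, so Mx1 does not stand for the list. Rsad2 was among them, at 1380, 1570, 1400 and 1360 CPM in E-Mac 1 to 4.

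Siglec1 is used as a marker of resident macrophages of the bone marrow, so 12 other genes of that kind were examined. Of the 10 tested, 8 rose and 2 fell, with a median log2 fold change of 1.17, and the groups did not overlap for any of the 10. Among all genes tested, 29.5% rose and 28.8% fell, and 53.9% did not overlap. The transcription factor Maf rose to 415 ± 85.6 CPM in E-Mac, against 38.4 in Mac (3.43 ± 0.15). The macrophage surface gene Adgre1 (1.0 ± 0.08) and the efferocytosis receptor Mertk (1.75 ± 0.18) rose too. Vcam1, the adhesion molecule of erythroblastic island macrophages, fell (-2.0 ± 0.18), and so did the haptoglobin-haemoglobin scavenger receptor Cd163 (-2.03 ± 0.26). Timd4 and Epor were too low to test, with 82 and 2 counts over the E-Mac group and 12 and 26 over the Mac group. The genes that accompany Siglec1 in such macrophages thus moved in both directions.

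Siglece, the inhibitory receptor of neutrophils and monocytes, stood at 65.1, 95.7, 73.9 and 93.8 CPM in E-Mac 1 to 4, against 131, 132, 137 and 131 CPM in Mac 1 to 4. The Mac libraries lay close together and all E-Mac libraries were below them. The means were 82.1 ± 15 CPM in E-Mac and 133 ± 3.09 in Mac (log2 fold change -0.69 ± 0.11, edgeR adjusted p = 0.000106). The 95% interval of the fold was 0.526 to 0.726.

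Siglecg, best known from B cells, stood at 30.7, 57.5, 35.9 and 71.8 CPM in E-Mac 1 to 4, against 129, 119, 125 and 98.0 CPM in Mac 1 to 4. Here too every E-Mac library was below every Mac library, although the E-Mac libraries differed among themselves by more than for Siglece. The means were 49.0 ± 19.1 CPM in E-Mac and 118 ± 13.9 in Mac (log2 fold change -1.26 ± 0.25, edgeR adjusted p = 0.00231). The 95% interval of the fold was 0.28 to 0.619. Siglecg was lower in E-Mac whichever pair was left out, at -1.81 without E-Mac 2 and 4 and -0.86 without E-Mac 1 and 3, and Siglece likewise, at -0.93 and -0.48.

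Markers of the cells in which Siglece and Siglecg are best known were set beside them. Of the 15 neutrophil markers 12 fell and 1 rose, against 28.8% lower and 29.5% higher among all genes tested, and none was at 0. Ngp fell to 1395 ± 397 CPM in E-Mac, against 7785 ± 260 in Mac, and S100a9 to 4240 ± 1052 CPM in E-Mac, against 9376 ± 650 in Mac. As for Siglece and Siglecg, the neutrophil sum was higher in E-Mac 2 and 4 (17160 and 14760 CPM) than in E-Mac 1 and 3 (10760 and 11310 CPM). Of 6 monocyte markers 5 fell and 1 rose. The chemokine receptor gene Ccr2 fell to 638 ± 134 CPM in E-Mac, against 1240 ± 61.7 in Mac, and Nr4a1, a factor of patrolling monocytes, to 46.8 ± 6.4 CPM in E-Mac, against 315 ± 87.4 in Mac. Ly6c2, the surface marker of inflammatory monocytes, rose to 2560 ± 113 CPM in E-Mac, against 946 ± 26.5 in Mac. The monocyte sum was 3170 to 3630 CPM in E-Mac and 2920 to 3090 in Mac (exact two-sided permutation test p = 0.029, adjusted 0.0381). Its log2 ratio was 0.156, but -1.36 without Ly6c2 and 0.0126 with library size only. The part of neutrophil and monocyte transcripts in the Siglece difference was not tested. The 10 B cell markers were low, with sums of 15.1 to 29.9 CPM in E-Mac and 16 to 18.8 in Mac (exact two-sided permutation test p = 0.143, adjusted 0.156), and Igll1 was at 0. Cd79b made up much of the sum, at 8.62 ± 1.73 CPM in E-Mac and 12.3 ± 0.544 in Mac. The whole B cell sum was below the level of Siglecg alone in every library, and of the 6 tested B cell markers 5 rose and Cd79b fell. Levels of different genes do not give cell numbers, and the part of B cell transcripts in the Siglecg difference was not tested.

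Cd33 and Siglecf did not pass the test, and the E-Mac libraries lay on both sides of the Mac libraries. Cd33 stood at 326, 519, 329 and 537 CPM in E-Mac 1 to 4, against 498, 422, 442 and 407 CPM in Mac 1 to 4. E-Mac 2 and 4 were above all Mac libraries and E-Mac 1 and 3 below all of them. The means were 428 ± 116 CPM in E-Mac and 442 ± 39.7 in Mac (log2 fold change -0.05 ± 0.17, edgeR adjusted p = 0.824), and the 95% interval of the fold was 0.748 to 1.25. With E-Mac 2 and 4 left out Cd33 was called lower in E-Mac (-0.43 ± 0.07, edgeR adjusted p = 4.10e-06), and with E-Mac 1 and 3 left out it was called higher (0.26 ± 0.07, edgeR adjusted p = 0.00333). Both pairs were chosen with these data known, so the opposite calls describe the split among the E-Mac libraries and are no test of co-culture. Over 20 alternatives the adjusted p of Cd33 ran from 4.1e-06 to 0.971.

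Siglecf, the eosinophil receptor, stood at 91.0, 143, 99.1 and 184 CPM in E-Mac 1 to 4, against 126, 135, 109 and 102 CPM in Mac 1 to 4. E-Mac 2 and 4 were again the high ones and E-Mac 1 and 3 lay below all Mac libraries. The means were 129 ± 42.8 CPM in E-Mac and 118 ± 14.9 in Mac (log2 fold change 0.13 ± 0.21, edgeR adjusted p = 0.623, 95% interval of the fold 0.783 to 1.53). It was called lower with E-Mac 2 and 4 left out (-0.30 ± 0.10, edgeR adjusted p = 0.0162) and higher with E-Mac 1 and 3 left out (0.48 ± 0.13, edgeR adjusted p = 0.0167). As for Cd33, these opposite calls describe the split only, since the pairs were chosen with the data known. Over 20 alternatives the adjusted p of Siglecf ran from 0.0161 to 0.977.

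**Figure D2:**
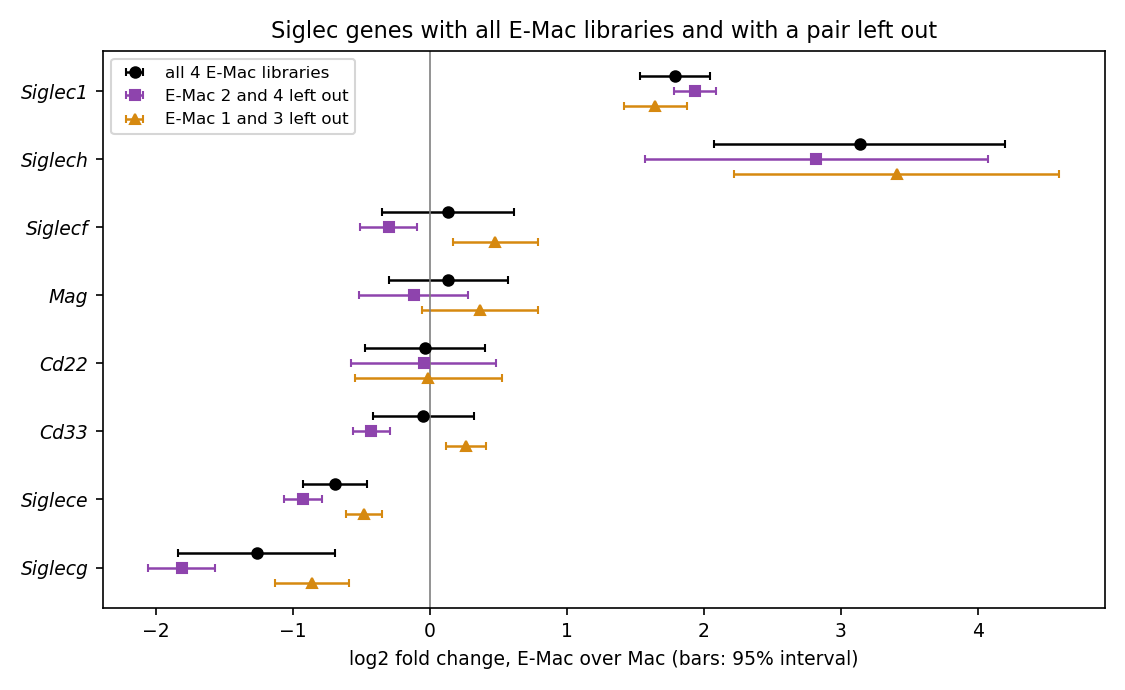
Log2 fold change (E-Mac over Mac) of the 8 tested Siglec genes with all 4 E-Mac libraries (black), with E-Mac 2 and 4 left out (purple) and with E-Mac 1 and 3 left out (orange), where bars are 95% intervals. Siglec1 and Siglech stay above 0 and Siglece and Siglecg below 0 in all 3 fits, whereas Siglecf and Cd33 lie below 0 in one and above it in the other.

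Siglece, Siglecg, Siglecf and Cd33 were each higher in both E-Mac 2 and E-Mac 4 than in E-Mac 1 and E-Mac 3. So were the low Siglecs Siglech and Mag, but not Siglec1 or Cd22. Of all genes tested, 25.8% had this order and 33% the opposite one. Each gene was also set against Cd33 within a library. The ratio of Siglece counts to Cd33 counts was 0.2, 0.184, 0.225 and 0.175 in E-Mac 1 to 4 and 0.263, 0.312, 0.311 and 0.323 in Mac 1 to 4. The ratio of Siglecg to Cd33 was 0.0941, 0.111, 0.109 and 0.134 in E-Mac 1 to 4, against 0.26, 0.281, 0.283 and 0.241 in Mac 1 to 4. In both ratios the groups did not overlap. Within E-Mac the ratio of Siglece was lower in E-Mac 2 and 4 than in E-Mac 1 and 3, and that of Siglecg was higher in them. The ratio of Siglecf to Cd33 ran from 0.275 to 0.342 in E-Mac and from 0.247 to 0.319 in Mac, with groups that overlapped, although each gene alone varied by 1.6-fold or more between E-Mac libraries.

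E-Mac 2 and 4, in which these 4 Siglecs were high, also held the most stromal marker transcripts. The part of these in the Siglec levels was not tested. Those 2 libraries also had lower macrophage marker sums, 10030 and 8404 CPM, against 11240 and 11700 CPM in E-Mac 1 and 3.

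Across the 8 libraries, Pearson's r of log2 CPM was 0.855 between Siglecf and Cd33 and 0.981 between Siglece and Siglecg. Siglec1 ran against Siglece (-0.94) and Siglecg (-0.929). These values describe 8 shared libraries in 2 groups. Among 8392 other genes with a mean of at least 10 CPM, those most like Siglec1 were Lipa (0.998), the lysosomal acid lipase, Coro1c (0.998), a coronin of the actin skeleton, and Pld3 (0.997), a lysosomal exonuclease. Those most like Siglece were Fmo5 (0.998), the peptidoglycan recognition protein gene Pglyrp1 (0.997), whose product is stored in neutrophil granules, and Tcp11l2 (0.996). Siglecg was followed most closely by the phospholipase Plcb2 (0.998), the kinase Map4k2 (0.997) and the ubiquitin ligase Rchy1 (0.996). Siglecf was followed by the SUMO protease Senp6 (0.982), the ubiquitin ligase Rnf125 (0.975) and the coagulation factor gene F5 (0.966), and Cd33 by the kinase Lrrk2 (0.984), Phf21a (0.981) and the GABA receptor gene Gabbr1 (0.980). F5 stood at 311, 556, 346 and 700 CPM in E-Mac 1 to 4 and at 400 to 459 in Mac, which is the order of the Siglecf libraries.

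Because Siglecf marks eosinophils, 6 eosinophil markers were set beside it, and none was at 0. Their sum was 2420 to 3900 CPM in E-Mac and 2630 to 3020 in Mac (exact two-sided permutation test p = 0.6, adjusted 0.6). The single markers divided, beside 28.8% lower and 29.5% higher among all genes tested. The granule protein genes Epx (-0.75 ± 0.22), Prg2 (-0.57 ± 0.11) and Prg3 (-0.63 ± 0.14) fell, whereas the eotaxin receptor Ccr3 (1.84 ± 0.25) and the lipoxygenase Alox15 (0.57 ± 0.20) rose and the interleukin-5 receptor gene Il5ra (0.14 ± 0.20, edgeR adjusted p = 0.568) did not pass. Ccr3 stood at 462, 829, 559 and 1100 CPM in E-Mac 1 to 4, against 207, 210, 219 and 187 CPM in Mac 1 to 4. Il5ra stood at 37.6, 57.4, 41.6 and 75.7 CPM in E-Mac 1 to 4 and at 41.3 to 51.3 in Mac. Both had the order of Siglecf in E-Mac, with E-Mac 4 first, E-Mac 2 second and E-Mac 1 last. Epx did not, at 231, 112, 260 and 174 CPM in E-Mac 1 to 4 against 299 to 350 in Mac. Siglecf is also found on alveolar macrophages, and 8 markers of that type summed to 1050 to 1370 CPM in E-Mac and 4050 to 4400 in Mac (exact two-sided permutation test p = 0.029, adjusted 0.0381). Of the 7 tested alveolar macrophage markers 5 fell and 2 rose, beside 28.8% lower and 29.5% higher among all genes tested. Chil3, which made up most of the sum, was among the 5. The 2 that rose, named after their values were seen, were Fabp5 and Marco. The lipid-binding protein gene Fabp5 was at 331 ± 90.5 CPM in E-Mac and 19.0 ± 2.11 in Mac. The scavenger receptor gene Marco was at 2.31 ± 0.894 CPM in E-Mac and 0.0923 ± 0.118 in Mac. The carbonic anhydrase gene Car4 had 2 counts in all. The part of eosinophil transcripts in the Siglecf level was not tested.

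**Figure D3:**
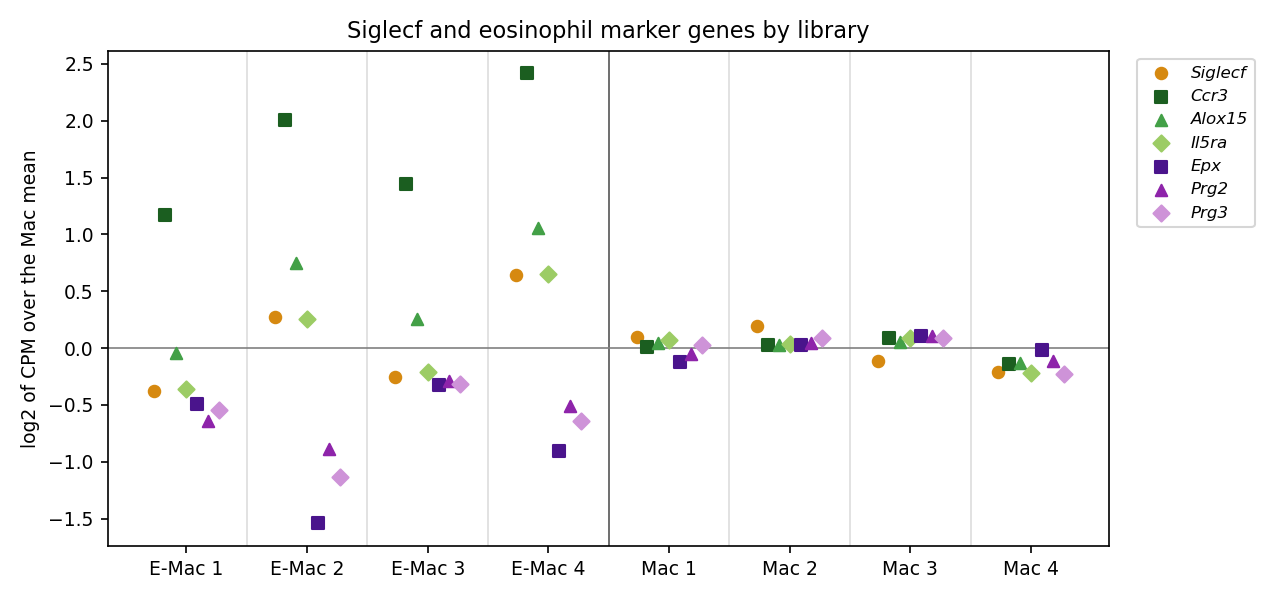
Log2 of the CPM of Siglecf and 6 eosinophil marker genes over their mean in the Mac libraries, for each library, with E-Mac left and Mac right of the dark line. In E-Mac, Ccr3, Alox15 and Il5ra take the order of Siglecf, with E-Mac 4 highest, while Epx, Prg2 and Prg3 lie below 0 in all 4 E-Mac libraries.

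The 4 other mouse Siglec genes were low. Siglech, the receptor of plasmacytoid dendritic cells that pairs with the Tyrobp adaptor, had 22, 38, 28 and 39 counts in E-Mac 1 to 4, against 5, 4, 6 and 0 in Mac 1 to 4. It rose to 2.25 ± 0.535 CPM in E-Mac, against 0.253 ± 0.17 in Mac (log2 fold change 3.14 ± 0.49, edgeR adjusted p = 0.000111), with no overlap. The 7 plasmacytoid dendritic cell markers, Siglech among them, summed to 58.7 to 77.5 CPM in E-Mac and 42.7 to 50.4 in Mac (exact two-sided permutation test p = 0.029, adjusted 0.0381), most of it the transcription factor Tcf4. The next highest, Ccr9, was at 3.04 ± 0.732 CPM in E-Mac and 0.61 ± 0.32 in Mac. Cd22, the B cell Siglec, was at 4.03 ± 0.282 CPM in E-Mac and 4.10 ± 1.0 in Mac (log2 fold change -0.03 ± 0.20, edgeR adjusted p = 0.9). An antisense gene overlaps 9.5% of its exon length, and since the strand setting of the counting is not given, reads of the pair cannot be told apart. Mag, the Siglec of myelin-forming cells, was at 9.40 ± 2.61 CPM in E-Mac and 8.58 ± 1.81 in Mac (0.14 ± 0.20, edgeR adjusted p = 0.588). Siglec15, known from osteoclasts, was not tested, with 0 counts in E-Mac and 2 in Mac, both in Mac 2.

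To compare levels between genes, counts were divided by length. With the exon union of each gene as its length, Siglec1 stood at 58.8 ± 10.8 CPM per kb in E-Mac, rank 1 of the 9 Siglecs, and at 17.0 ± 1.11 in Mac, rank 5. In E-Mac it was followed by Cd33 (55.0 ± 14.9), Siglecf (46.3 ± 15.3) and Siglece (44.4 ± 8.13), and neighbours in this order differed by less than their SDs. Siglecg followed with 10.2 ± 3.98 CPM per kb, below the others by more than its SD. In Mac the order was Siglece (71.9 ± 1.67), Cd33 (56.9 ± 5.11), Siglecf (42.2 ± 5.36), Siglecg (24.5 ± 2.89) and Siglec1, and each pair of neighbours differed by more than their SDs. The place of Cd33 depends on which transcript is counted, since its exon union is 7.77 kb and its shortest CCDS transcript 1.79 kb. With the shortest CCDS transcripts, Cd33 came first in both groups, at 239 ± 64.8 CPM per kb in E-Mac and 247 ± 22.2 in Mac, and Siglec1 had rank 2 in E-Mac (65.8 ± 12.1) and rank 5 in Mac (19.0 ± 1.24).

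As a share of the length-scaled sum of all 9 Siglecs, Siglec1 made up 27.8 ± 8.36% in E-Mac and 7.90 ± 0.661% in Mac. Siglece made up 20.3 ± 1.31% in E-Mac, against 33.4 ± 1.90% in Mac, and Siglecg 4.54 ± 1.13% in E-Mac, against 11.3 ± 0.796% in Mac. The shares of Cd33 (24.8 ± 2.92% in E-Mac and 26.4 ± 1.42% in Mac) and Siglecf (20.8 ± 3.94% in E-Mac and 19.6 ± 1.86% in Mac) differed by less than the SD in E-Mac. With the shortest CCDS lengths Siglec1 made up 15.9 ± 5.55% in E-Mac and 4.30 ± 0.432% in Mac. A share falls when another member rises, so these are not independent of each other.

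**Figure D4:**
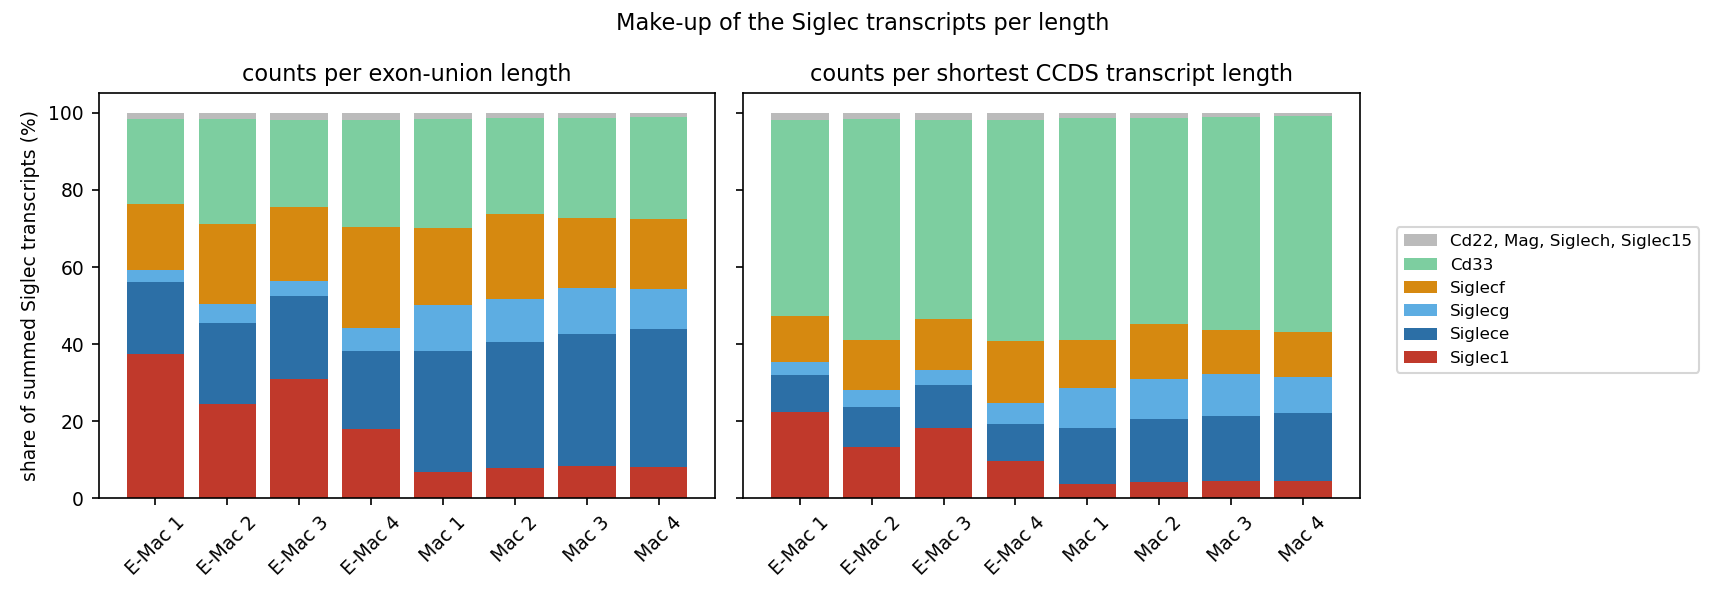
Share of each gene in the length-scaled counts of the 9 mouse Siglec genes, for each library, in percent, with lengths from the exon union (left) or the shortest CCDS transcript (right). Siglec1 (red) makes up 27.8% on average in E-Mac and 7.90% in Mac with exon-union lengths, and Cd33 (green) makes up 54.2% in E-Mac and 55.6% in Mac with CCDS lengths.

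Downstream of the receptors, the list of 16 signalling genes was split, with 7 higher, 4 lower and 5 not called in E-Mac (median log2 fold change 0.16, against -0.003 over all genes, of which 58.3% were called). The phosphatases that bind the inhibitory motifs, singled out after their values were seen, did not pass: Ptpn6 was at 553 ± 36.7 CPM in E-Mac and 577 ± 14.8 in Mac (-0.06 ± 0.07, edgeR adjusted p = 0.468), and Ptpn11 at 136 ± 3.01 CPM in E-Mac and 124 ± 2.81 in Mac (0.13 ± 0.06, edgeR adjusted p = 0.0677). Ptpn6 was called lower with E-Mac 2 and 4 left out (-0.13, edgeR adjusted p = 0.0358) and with library size only (-0.21, adjusted p = 0.0174), and Ptpn11 was called by DESeq2 (0.13, adjusted p = 0.041). Over all alternatives their adjusted p ran from 0.0174 to 0.851 and from 0.041 to 0.873. The inositol phosphatase Inpp5d rose to 502 ± 12.0 CPM in E-Mac, against 368 ± 7.89 in Mac. Socs3, an inhibitor of cytokine signalling, rose to 153 ± 9.37 CPM in E-Mac, against 95.1 ± 12.3 in Mac. Among the adaptors with activating motifs, Fcer1g rose (0.49 ± 0.07), and so did Tyrobp (0.43 ± 0.08), the partner of Siglech. Of the Src-family kinases that phosphorylate such tails, Lyn fell (-0.39 ± 0.07). The ubiquitin ligases Cblb (-2.07 ± 0.09) and Cbl (-0.39 ± 0.08) fell as well, Cblb to 31.0 ± 3.95 CPM in E-Mac against 130 ± 6.31 in Mac.

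The ligands of Siglecs are sialylated glycans, and 7 of 8 tested genes of sialic acid metabolism passed the test, 4 higher and 3 lower in E-Mac (median log2 fold change 0.05), beside 58.3% called among all genes tested. Renbp, an epimerase of its precursor sugar, rose by 1.66 ± 0.13, the sialic acid lyase Npl by 1.86 ± 0.23 and the lysosomal exporter Slc17a5 by 0.89 ± 0.13 on the log2 scale. Renbp stood at 54.6, 42.7, 51.3 and 36.4 CPM in E-Mac 1 to 4, against 12.5, 15.4, 14.3 and 16.4 CPM in Mac 1 to 4. The synthase Nans rose (0.28 ± 0.11), while the key enzyme Gne (-0.42 ± 0.15), the activating enzyme Cmas (-0.31 ± 0.06) and the hydroxylase Cmah (-1.11 ± 0.25) fell. The Golgi transporter Slc35a1 did not pass (-0.19 ± 0.13, edgeR adjusted p = 0.219), except with library size only (-0.34, adjusted p = 0.0392), and Nanp was too low to test. The groups overlapped for Gne and Nans. The call of Gne was lost without Mac 1, Mac 4, E-Mac 1 or E-Mac 2 (edgeR adjusted p = 0.0865, 0.084, 0.0528 and 0.105, 0.00496 to 0.105 over all alternatives) and with E-Mac 1 and 3 left out (0.0614). That of Nans was lost without Mac 1, 2 or 3 or E-Mac 1 or 3 (0.133, 0.0808, 0.0569, 0.106 and 0.111, 5.95e-05 to 0.408 over all alternatives). It was also lost with E-Mac 1 and 3 left out (edgeR adjusted p = 0.408) and with at least 10 CPM in 4 libraries (0.0748). The replicate block (0.0592), limma-voom (0.0529), upper-quartile factors (0.151) and library size only (0.298) lost it too.

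Sialyltransferases attach the sugar in the linkages that Siglecs tell apart. Of 20 listed, 14 were tested, 7 of these fell and 2 rose (median log2 fold change -0.32), beside 28.8% lower and 29.5% higher among all genes tested. The other 6 had 0 counts in every library. St8sia4, which makes polysialic acid, fell to 92.4 ± 12.8 CPM in E-Mac, against 216 ± 11.1 in Mac (-1.22 ± 0.09). St3gal4, which adds alpha-2,3-linked sialic acid, fell to 62.8 ± 5.07 CPM in E-Mac, against 111 ± 3.86 in Mac (-0.82 ± 0.07). St8sia6, which makes disialic acid, fell to 0.423 ± 0.336 CPM in E-Mac, against 7.32 ± 1.54 in Mac (-4.07 ± 0.38). The 2 that rose were of the family that sialylates GalNAc: St6galnac4 stood at 74.6, 65.3, 81.9 and 59.4 CPM in E-Mac 1 to 4, against 19.1, 24.5, 21.3 and 17.4 CPM in Mac 1 to 4 (1.78 ± 0.12). St6galnac5 was low and its groups overlapped (1.69 ± 0.43, edgeR adjusted p = 0.00448), and its call was lost with E-Mac 2 and 4 left out (1.0, edgeR adjusted p = 0.0545). Of 5 tested genes that remove or modify sialic acid 1 rose and 2 fell. The lysosomal sialidase Neu1 rose to 187 ± 10.6 CPM in E-Mac, against 128 ± 5.0 in Mac, while Ctsa, which protects it, fell (-0.25 ± 0.09) and so did the acetylesterase Siae (-0.47 ± 0.12). Neu3 (0.25 ± 0.27, edgeR adjusted p = 0.448) and the acetyltransferase Casd1 (0.00 ± 0.09, edgeR adjusted p = 0.982) did not pass. The call of Ctsa was lost without Mac 2, 3 or 4 (edgeR adjusted p = 0.0632, 0.0663 and 0.0615, 0.000834 to 0.0663 over all alternatives), and Neu2 and Neu4 had 0 counts.

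Of 7 proteins known to carry Siglec ligands, 5 were tested, and 3 rose and 1 fell in E-Mac, beside 58.3% called among all genes tested (median log2 fold change of the list 0.53). Lgals3bp, a secreted glycoprotein bound by human Siglecs, stood at 1170, 1110, 1200 and 929 CPM in E-Mac 1 to 4, against 212, 244, 241 and 241 CPM in Mac 1 to 4 (2.23 ± 0.09, edgeR adjusted p = 3.82e-10). Spn, which encodes the sialomucin CD43, a partner of Siglec1, fell to 103, 107, 107 and 120 CPM in E-Mac 1 to 4, against 284, 288, 281 and 279 CPM in Mac 1 to 4 (-1.37 ± 0.07, edgeR adjusted p = 1.8e-09). Neither set of libraries overlapped. Cd52, whose human product binds a Siglec, rose (0.58 ± 0.07). Cd24a, the partner of Siglecg, stood at 653, 1150, 778 and 1320 CPM in E-Mac 1 to 4, against 654, 726, 706 and 612 CPM in Mac 1 to 4. It was high in E-Mac 2 and 4, and its call (0.53 ± 0.20, edgeR adjusted p = 0.0421) was lost with those 2 left out (0.09, edgeR adjusted p = 0.291), without Mac 1, 2, 3 or 4 (0.08, 0.0552, 0.0614 and 0.0839) without E-Mac 2 or 4 (0.12 and 0.126) and with upper-quartile factors, library size only or no filter (0.0987, 0.117 and 0.145, 5.37e-09 to 0.291 over all alternatives). Selplg did not pass (-0.14 ± 0.10, edgeR adjusted p = 0.225) but was called lower with E-Mac 2 and 4 left out (-0.32, edgeR adjusted p = 3.06e-05) and with library size only (-0.28, adjusted p = 0.0191, 3.06e-05 to 0.679 over all alternatives). The mucins Muc1 and Muc5b were too low to test.

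**Figure D5:**
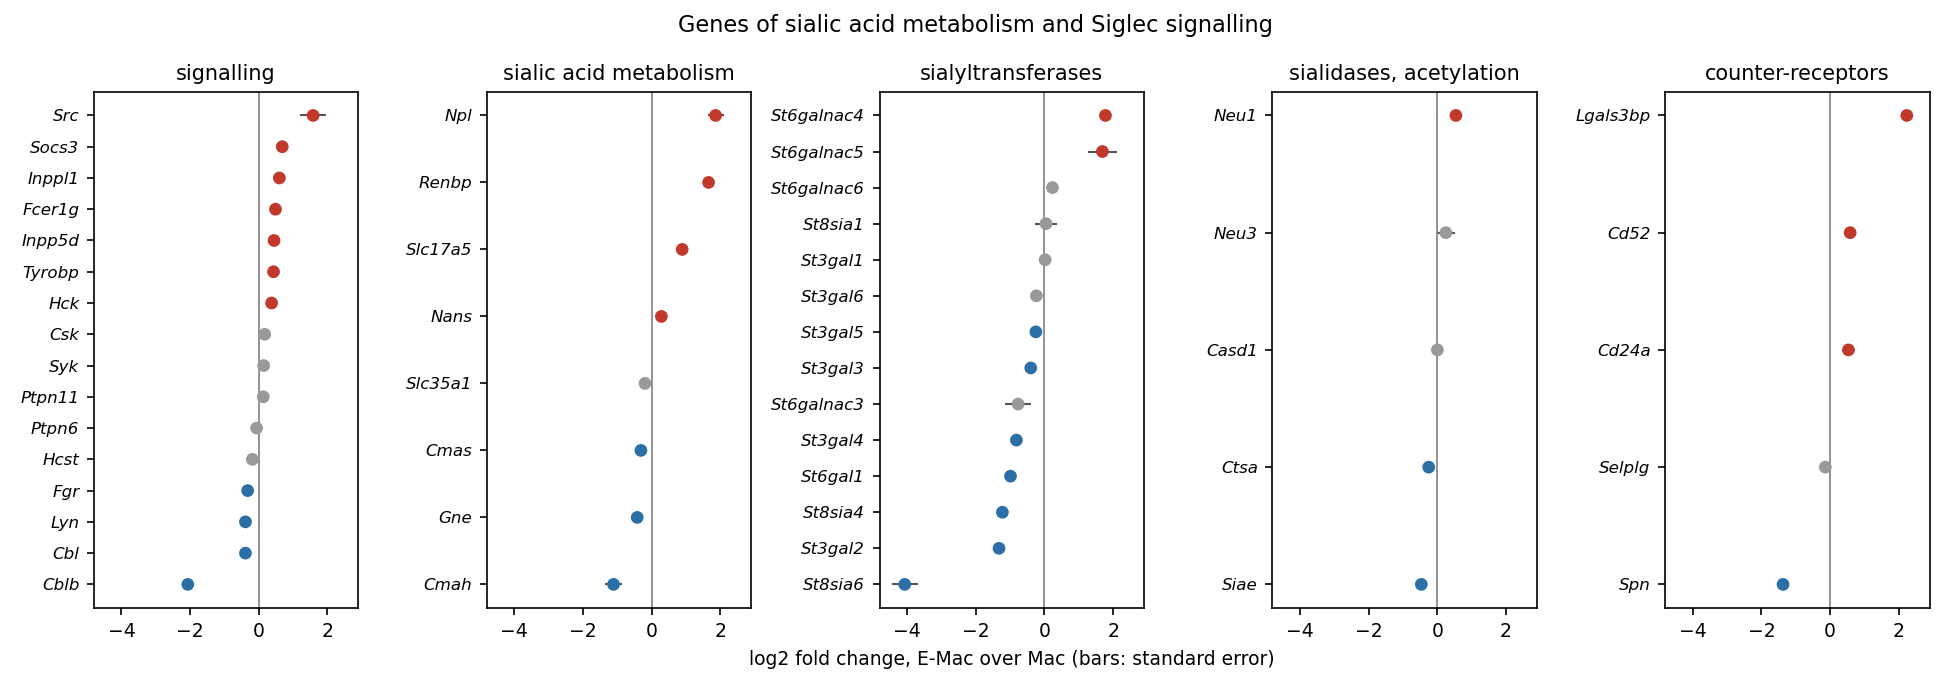
Log2 fold change (E-Mac over Mac) with its standard error for the tested genes of Siglec signalling, sialic acid metabolism, sialyltransferases, sialidases and acetylation, and counter-receptors. Red points were called higher and blue points lower in E-Mac, and grey points were not called. St8sia6 has the lowest value (-4.07) and Lgals3bp the highest (2.23).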

How the data were processed

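PolyA RNA of 8 libraries, 4 E-Mac and 4 Mac, had been sequenced from kits named in the labels' protocols (RNeasy micro with DNase, VAHTS mRNA-seq V3). The authors deposited 1 table of raw counts per gene symbol. Build mm10 and the tools HISAT2, featureCounts of Subread, bcl2fastq and DESeq2 are listed in the submitters' processing notes. Versions, roles, annotation release and the handling of strand and repeats were items not given in the sources used here. Of 53673 names, 26 had the form of dates (0.133 to 0.16% of counts) and were left out. Between replicates, chi-square over its degrees of freedom was 4.85 to 33.9, above sampling noise for every pair.

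The test was edgeR's robust quasi-likelihood test of E-Mac against Mac (version 4.0.16, R 4.3.3). Low genes were removed by filterByExpr with a count of 10 and a total of 15. TMM factors were 0.931 to 0.97 in E-Mac and 1.03 to 1.07 in Mac. P-values of the 13412 genes left were adjusted by Benjamini-Hochberg, and a call is an adjusted p under 0.05. The standard error is the log2 fold change divided by the square root of F. The script was tested on simulated data. Marker sums were compared with exact permutation tests, whose smallest p is 0.029. The members, lists and the E-Mac 2 and 4 alternative were chosen with earlier results of these data known. The text names all Siglecs, every tested gene of lists of 9 or fewer, of longer lists the 3 with the smallest adjusted p in each direction, the highest genes of the marker lists it describes (the other eosinophil markers, Fabp5, Marco, Nr4a1, Ifit2, Mx1, Tyrobp, Ptpn6, Ptpn11, Igll1 and Car4 were chosen after their values were seen), and the 3 genes most correlated with each member. Alternatives were other scalings and filters, DESeq2 1.42.0, limma-voom (limma 3.58.1), a replicate block, no robust option, a threshold of 0.01 and libraries left out. Leaving out E-Mac 1 and 3 and using CCDS lengths were alternatives added after seeing the data. Intervals of folds are 95% intervals of the fit.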

Additional observations from a re-analysis of the deposited data

Results flagged for a closer look

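In 42 groups of 4 libraries (each Siglec gene and each marker sum in E-Mac and in Mac), 3 held a library whose gap to the nearest other exceeded Dixon's 95% critical value, and chance flags about 1 group in 20. Siglece was 137 CPM in Mac 3, above 131 to 132 in the other Mac libraries, a small gap in a tight group. Siglech was 0 CPM in Mac 4, below 0.311 to 0.369 in the other Mac libraries. Siglec15 was 0.167 CPM in Mac 2, from 2 counts, and 0 in the other Mac libraries.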

How the results depend on the processing

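Siglec1, Siglece and Siglecg kept their direction and call under all 20 alternatives, with log2 fold changes of 1.65 to 1.94, -0.927 to -0.48 and -1.81 to -0.858. With one library left out they ran from 1.69 to 1.9, from -0.757 to -0.592 and from -1.5 to -1.09. Cd33 and Siglecf, not called with all libraries, changed sign with single libraries: Cd33 ran from -0.17 to 0.0677 (above 0 when Mac 1, E-Mac 1 or E-Mac 3 was absent) and Siglecf from -0.0783 (without E-Mac 4) to 0.273. With E-Mac 2 and 4 left out the values were -0.426 for Cd33, -0.3 for Siglecf, -0.118 for Mag, -0.00598 for Neu3 and -0.154 for Casd1, and with E-Mac 1 and 3 left out 0.264 for Cd33, 0.479 for Siglecf, 0.0305 for Selplg and 0.0197 for Ptpn6. The cause was not tested. With library size only, which moves the median of all genes to -0.147, Siglecf was -0.00891, Mag -0.00744, Ptpn11 -0.0123 and Casd1 -0.141. Casd1, at 0.00286 with all settings as reported, also turned with upper-quartile factors (-0.0918), at least 10 CPM in 4 libraries (-0.034), limma-voom (-0.0044), and ran from -0.0691 to 0.0806 with one library left out. Mag then ran from -0.0624 to 0.27 and Cd22 from -0.133 to 0.128. Deviations of same-numbered libraries from their group means had r = -0.106 to 0.0282. This cannot show whether the numbers pair them, since the split among the E-Mac libraries could hide a shared origin. The replicate block gave 7458 calls in place of 7814, -0.00661 for Casd1, and changed no call of a Siglec gene. Without length scaling, the share of the Siglec sum (E-Mac minus Mac, percentage points) was -6.82 for Siglece, -8.16 for Siglecg, -9.18 for Cd33 and -1.14 for Siglecf, which was 1.23 with exon lengths and -0.591 without E-Mac 4. With CCDS lengths it was -6.02 for Siglece. With one library left out these shares ran from 16.7 to 23.2 for Siglec1, -13.8 to -12.4 for Siglece, -7.27 to -6.4 for Siglecg, -2.44 to -0.586 for Cd33 and -0.591 to 2.46 for Siglecf. Without its highest member the log2 ratio of the marker sum turned to 0.954 for macrophages, -1.36 for monocytes and 0.132 for osteoclasts. The eosinophil ratio was -0.0247 with library size only and -0.0738 with E-Mac 2 and 4 left out. At these depths, Siglech in Mac rests on 15 counts.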
